A study of Homo sapiens with 21 samples.

Results

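The transcripts followed here are those of 10 genes that encode the kinases of RNA polymerase II transcription and their direct partners. CDK12, CDK13 and their cyclin CCNK, CDK9 with its cyclins CCNT1 and CCNT2, CDK7 with CCNH and MNAT1, and HEXIM1, the protein inhibitor of CDK9, were taken by name. They are 10 of 28395 gene rows of 1 count table, matched by Entrez gene identifier to current NCBI symbols. All 10 were found and all 10 passed the filter on low counts. RNA was sequenced from the Hs578T line, derived from a triple-negative breast carcinoma, in 7 groups of 3 replicates (21 libraries), collected 8 h after treatment. The control cells received DMSO, the solvent. Further groups received 0.1 µM or 1 µM THZ531, a covalent inhibitor of CDK12 and CDK13, or 3.16 µM lapatinib or 1 µM nilotinib, which are tyrosine kinase inhibitors. In the combinations, 0.1 µM THZ531 was given together with 3.16 µM lapatinib (lapatinib + THZ531) or with 1 µM nilotinib (nilotinib + THZ531). The comparisons ask whether the inhibitors changed the transcripts of the kinase machinery itself, and whether 0.1 µM THZ531 with an inhibitor acted on them like 1 µM THZ531 alone.

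RNA polymerase II is driven through transcription by a series of cyclin-dependent kinases that phosphorylate its C-terminal domain and its accessory factors. CDK7, cyclin H and the assembly factor MAT1 (MNAT1) form the kinase module of TFIIH, which acts at the promoter and also activates other CDKs. CDK9 with cyclin T1 or T2 forms P-TEFb, which releases paused polymerase into elongation, and HEXIM1 holds P-TEFb inactive on the 7SK small nuclear RNA. CDK12 and CDK13, each with cyclin K, act later in elongation and are known for keeping long genes, many of them for DNA repair, transcribed to their ends.

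Total counts lay between 97612207 and 112229052 per library. Of 5 listed markers of a mesenchymal line all 5 passed the filter on low counts, with VIM at 6845 and AXL at 1346 CPM in DMSO. Of 6 genes listed as absent or low in such a line, 4 passed. In DMSO CDH1 and EPCAM, epithelial adhesion genes, were at 0.205 and 0.0399 CPM and the progesterone receptor gene PGR was at 0. KRT8, a keratin gene of that list, was higher in both combinations and with 1 µM THZ531 when scaled by library size alone (adjusted p under 0.05, edgeR). It was not higher when scaled to mitochondrial mRNAs. Levels are read counts scaled to a common library size by TMM normalisation (CPM), and every change given here is relative to the other transcripts of the same library. Less RNA per cell, fewer cells and a change in a gene's own output cannot be told apart in such data. The share of counts in the 13 mitochondrially encoded mRNAs was 1.25% ± 0.09 (SD, n = 3) in DMSO, 1.60% ± 0.139 with lapatinib + THZ531, 1.56% ± 0.114 with nilotinib + THZ531 and 1.54% ± 0.219 with 1 µM THZ531. When libraries were scaled to these mRNAs instead, the median log2 FC of all 16036 tested genes was -0.69, -0.63 and -0.55 in these treatments, so small rises under TMM are given with their value under this scaling. Replicate 1 was the lowest library of both combinations for 7 members, and replicate 2 was the lowest of 1 µM THZ531 for 8. PTPRC, a leukocyte gene, lay at 1.05 CPM in DMSO and 1.76, 1.86 and 2.33 CPM in lapatinib + THZ531, nilotinib + THZ531 and 1 µM THZ531, PECAM1, an endothelial gene, at 0.3595 to 0.380 CPM in these 4 groups, and their part in the results was not tested. P-values measure the spread between replicate samples described as independent experiments, 3 per group. In the main fit this spread was estimated over all 21 libraries together, so libraries outside a comparison also bear on its p-value.

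Per kb of annotated exon, the transcripts of DMSO-treated cells ran from 9.26 (CCNK) to 2.23 CPM per kb (CCNT2), apart from CDK7, whose level rests on few counts. In DMSO, CCNK stood at 9.26 ± 0.791 CPM per kb, CDK9 at 8.68 ± 0.19 and CCNH at 8.54 ± 0.62 (SD, n = 3), and these leading levels overlapped in their spread. MNAT1 at 7.16 ± 0.232 and HEXIM1 at 6.75 ± 0.24 CPM per kb overlapped as well. Below them the order was clear of the spread, with CCNT1 at 5.47 ± 0.348, CDK12 at 3.999 ± 0.377, CDK13 at 2.77 ± 0.169 and CCNT2 at 2.23 ± 0.101 CPM per kb. CDK7 was lowest at 0.533 ± 0.493 CPM per kb. The order depended on the length used, since per kb of the longest transcript CCNH led with 21.4 CPM per kb, CDK13 with 7.21 stood above CDK12 with 6.26, and CDK7 remained last with 0.884. Under lapatinib + THZ531 HEXIM1 stood first, at 17.1 ± 5.45 CPM per kb of exon, and CDK12 was ninth at 0.989 ± 0.152.

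Promoter sequence is shown for the pair of members with the largest rises under lapatinib + THZ531 that passed the test, HEXIM1 and CCNT2, and for CDK12 and CDK9, which were lower in every strong treatment. The 250 bases before the annotated start are from RefSeq, build GRCh38.p14, plus strand, and capitals mark every match to the motifs named next. CDK12 lies at chr17:39461486-39567559, CDK9 at chr9:127786034-127790792, CCNT2 at chr2:134918822-134959342 and HEXIM1, which has 1 exon, at chr17:45148475-45152099.
CDK12, chr17:39461236-39461485: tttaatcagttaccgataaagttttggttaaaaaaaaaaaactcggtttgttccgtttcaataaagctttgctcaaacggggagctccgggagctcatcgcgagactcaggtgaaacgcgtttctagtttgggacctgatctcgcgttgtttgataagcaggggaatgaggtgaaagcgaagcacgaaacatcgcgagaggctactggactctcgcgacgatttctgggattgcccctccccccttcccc
CDK9, chr9:127785784-127786033: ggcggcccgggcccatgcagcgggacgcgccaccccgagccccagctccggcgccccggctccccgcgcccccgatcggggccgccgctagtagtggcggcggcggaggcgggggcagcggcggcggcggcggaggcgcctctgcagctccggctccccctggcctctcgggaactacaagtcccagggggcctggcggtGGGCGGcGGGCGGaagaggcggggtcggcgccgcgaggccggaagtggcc
CCNT2, chr2:134918572-134918821: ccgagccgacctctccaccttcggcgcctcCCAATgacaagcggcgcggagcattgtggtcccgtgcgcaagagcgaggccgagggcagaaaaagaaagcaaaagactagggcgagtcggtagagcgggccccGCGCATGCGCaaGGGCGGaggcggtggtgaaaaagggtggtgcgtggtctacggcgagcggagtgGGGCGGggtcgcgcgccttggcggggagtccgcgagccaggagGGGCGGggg
HEXIM1, chr17:45148225-45148474: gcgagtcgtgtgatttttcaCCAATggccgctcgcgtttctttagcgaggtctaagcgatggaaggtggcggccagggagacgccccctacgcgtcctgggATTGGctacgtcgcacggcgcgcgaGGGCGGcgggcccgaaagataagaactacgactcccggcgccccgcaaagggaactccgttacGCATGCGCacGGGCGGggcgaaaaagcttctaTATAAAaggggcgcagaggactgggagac

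Each motif was searched on both strands in a window from 250 bases before to 50 after the start, and all 10 members had a window. The TATA box TATAAA stood 29 bases before the HEXIM1 start and in no other member, against 12% of 27305 genes. The sequence GCGCATGC, the core bound by NRF1, was found in CCNT2 and HEXIM1 of the members and in 3.28% of genes. HEXIM1 and CCNT2 also held CCAAT, together with CCNK and CCNT1, and CCAAT was found in 35.7% of genes. GGGCGG was present in 8 members, all but CDK12 and MNAT1, and in 44.5% of genes. CACGTG was present in CCNT1 and CDK7 (7.41% of genes), and TGACG, which overlaps CACGTG in both, in these and in CDK13, CCNK and CCNH (24.9% of genes). CDK12 and MNAT1 held none of the motifs. Guanine and cytosine made up 49.0% of the CDK12 window, 62.0% of that of HEXIM1 and 82.0% of that of CDK9, beside a median of 58.3% over genes.

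Under 1 µM THZ531, 7 of the 10 members fell and 2 rose against DMSO. Calls are at an adjusted p under 0.05 in the quasi-likelihood test of edgeR, adjusted by Benjamini-Hochberg over all tested genes, of which 36.8% were called lower and 33.1% higher. The median log2 FC of the members was -0.62, beside -0.01 over all tested genes. Lapatinib + THZ531 lowered 4 members and raised 4 (37.8% and 34.3% of tested genes), and nilotinib + THZ531 lowered 4 and raised 3 (37.3% and 33.7%). Their members' medians were -0.10 and -0.06. Beyond a log2 FC of 1 in size, CDK12 and CDK7 fell in each of these treatments, against 18.9%, 21.3% and 20.8% of tested genes with 1 µM THZ531, lapatinib + THZ531 and nilotinib + THZ531, and the falls of CDK7 rested on 1 DMSO library. Only HEXIM1 with lapatinib + THZ531 rose beyond 1, against 5.77%, 7.90% and 6.54% of tested genes in the same order. With 0.1 µM THZ531 alone 1 member rose and 0 fell (1.78% and 4.31% of tested genes). Neither lapatinib (0.0561% lower and 0.256% higher) nor nilotinib (0.0998% and 0.243%) alone changed any member at this threshold in edgeR or DESeq2. At an unadjusted p under 0.05 in edgeR there were 0 and 1 (CDK7). The share of all tested genes at that looser threshold is not given, so these 2 counts have no background beside them. Apart from CDK7 (-0.98 and -1.05) the log2 FCs of the members ran from -0.25 (CDK12) to 0.09 (MNAT1) with lapatinib and from -0.40 (HEXIM1) to 0.05 (MNAT1) with nilotinib. For CDK7 the means of 0.652 CPM with lapatinib and 0.622 with nilotinib stood beside DMSO libraries of 2.66, 0.604 and 0.596 CPM. The treatments share the 3 DMSO libraries.

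**Figure D1:**
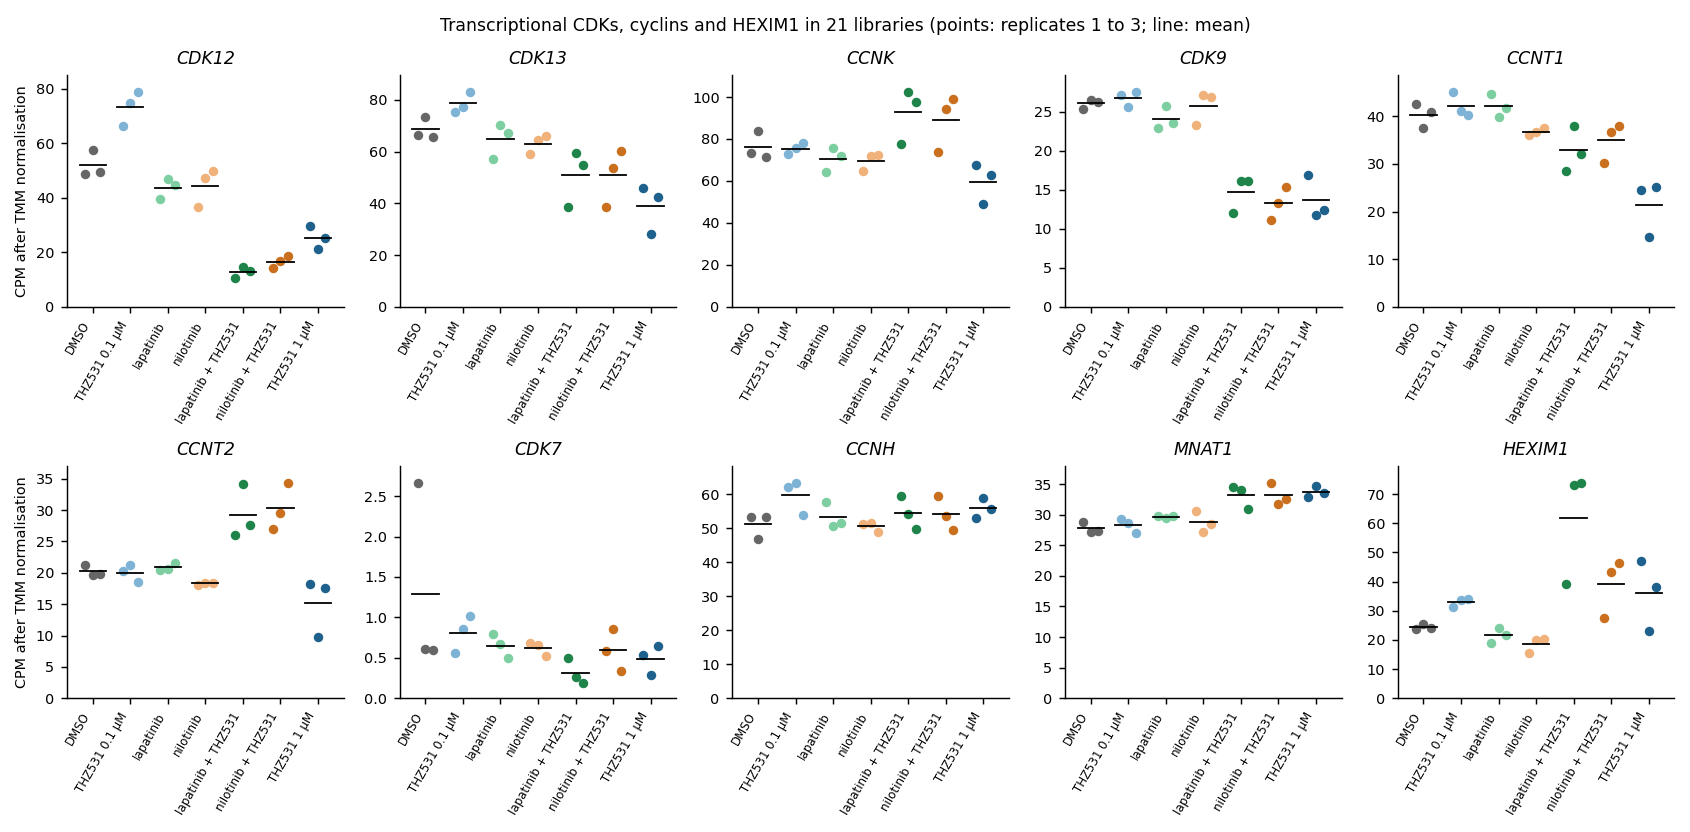
CPM after TMM normalisation (vertical axes, from 0) of the 10 members in each of 21 libraries, by treatment group, with points for replicates 1 to 3 from left to right and lines for group means. CDK12 lay at 10.7 to 14.5 CPM in the 3 lapatinib + THZ531 libraries against 48.8 to 57.5 in DMSO, and HEXIM1 at 39.2 to 73.8 against 23.9 to 25.5.

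CDK12, the catalytic partner of cyclin K and a target of THZ531, changed in opposite directions with dose. In DMSO it was measured at 48.8, 57.5 and 49.3 CPM in replicates 1 to 3. At the lower dose, 0.1 µM THZ531, it was at 66.3, 74.7 and 78.9 CPM, above every DMSO library. This rise of 1.41-fold (log2 FC 0.50, SE 0.14, adjusted p = 0.0393, edgeR) was the only call among the members at this dose, and 96.7% of tested genes had a lower log2 FC. The call was lost without any 1 of the 6 libraries compared (CDK12 adjusted p from 0.0524 to 0.139, log2 FC 0.44 to 0.58), and without 3 libraries of other groups (0.0501 to 0.0523). It was also lost with mitochondrial mRNA scaling, at a log2 FC of 0.51 and an adjusted p of 0.0896 for CDK12.

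With 1 µM THZ531 CDK12 was at 29.6, 21.1 and 25.3 CPM, below every DMSO library. The log2 FC was -1.04 (SE 0.142, adjusted p = 2.15e-06, edgeR), and 19.0% of tested genes had a lower value. With lapatinib + THZ531, at a 10-fold lower dose of THZ531, it was at 10.7, 14.5 and 13.3 CPM, the lowest levels of any group. This fall of 4.04-fold (log2 FC -2.02, SE 0.147, adjusted p = 1.99e-10) left 7.36% of tested genes with a lower value. With nilotinib + THZ531 it was at 14.1, 16.8 and 18.7 CPM (log2 FC -1.65, SE 0.145, adjusted p = 3.58e-09). The inhibitors alone gave 39.6, 46.95 and 44.7 CPM with lapatinib and 36.5, 47.3 and 49.8 CPM with nilotinib, with log2 FCs of -0.25 and -0.22 that did not pass the test. The combinations went below 1 µM THZ531 itself, by -0.98 (SE 0.144, adjusted p = 3.6e-05) with lapatinib and -0.61 (SE 0.143, adjusted p = 0.00322) with nilotinib, and the groups did not overlap. All 5 of these CDK12 falls kept their call with any 1 library left out.

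CDK13, the close relative of CDK12 that shares cyclin K, was lower with 1 µM THZ531 and in the combinations. The gene lies at chr7:39950256-40099580. It was at 66.6, 73.5 and 65.8 CPM in DMSO and at 46.15, 28.3 and 42.4 CPM with 1 µM THZ531 (log2 FC -0.82, SE 0.17, adjusted p = 0.000264). Lapatinib + THZ531 gave 38.8, 59.3 and 55.0 CPM and nilotinib + THZ531 38.7, 53.7 and 60.4 CPM, all below DMSO, with log2 FCs of -0.43 (SE 0.169) in both (adjusted p = 0.0297 and 0.0292, edgeR). These falls rested on replicate 1 of each combination. Without it the log2 FC of CDK13 was -0.26 (adjusted p = 0.173) with lapatinib + THZ531 and -0.27 (adjusted p = 0.174) with nilotinib + THZ531, and both calls were also lost without DMSO replicate 2 (adjusted p = 0.0876 and 0.0878). Upper-quartile scaling ended both calls on CDK13 (-0.27 and -0.29, adjusted p = 0.13 and 0.105) and DESeq2's size factors that with lapatinib (adjusted p = 0.0502), whereas mitochondrial mRNA scaling gave -1.115 and -1.06. With 0.1 µM THZ531 alone CDK13 was at 75.5, 77.3 and 83.2 CPM, above the DMSO libraries, with a log2 FC of 0.20 that did not pass the test (adjusted p = 0.572).

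CCNK, the cyclin of both kinases, moved differently in the combinations and at 1 µM. It lies at chr14:99481409-99512440. DMSO libraries held 73.2, 83.6 and 71.6 CPM. With 1 µM THZ531 the values were 67.4, 49.1 and 62.75 CPM. The log2 FC of -0.35 (SE 0.122, adjusted p = 0.0156) was lost without 1 µM replicate 2 (CCNK log2 FC -0.23, adjusted p = 0.107) or DMSO replicate 2 (-0.28, adjusted p = 0.0764). Upper-quartile scaling ended this call as well (CCNK log2 FC -0.15, adjusted p = 0.238), whereas mitochondrial mRNA scaling gave -0.90. With lapatinib + THZ531 CCNK was at 77.8, 102.5 and 97.85 CPM (log2 FC 0.28, SE 0.122, adjusted p = 0.0433) and overlapped DMSO. This call was lost in 10 of 21 leave-outs, and the direction of CCNK turned with library size alone (-0.04) and with mitochondrial mRNA scaling (-0.40, adjusted p = 0.0145). Nilotinib + THZ531 gave 74.0, 94.3 and 98.95 CPM, a log2 FC of 0.23 that did not pass the test (adjusted p = 0.104; -0.40 with mitochondrial mRNA scaling). Against 1 µM THZ531 CCNK was higher in both combinations with no overlap, by 0.63 (SE 0.123, adjusted p = 0.000536) with lapatinib and 0.58 (SE 0.123, adjusted p = 0.00147) with nilotinib, and by 0.50 in both with mitochondrial mRNA scaling. The span of CCNK overlaps those of CCDC85C and SETD3, and the libraries did not keep strand, so reads in any shared exon cannot be told apart. Spans also overlap for CDK12 (LOC124904107 and RNU6-233P), CDK7 (CCDC125), MNAT1 (MAD2L1P1 and SRMP2) and HEXIM1 (HEXIM2-AS1). Whether exons are shared was not tested for any member.

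CDK9, the kinase of P-TEFb, was lower in both combinations and with 1 µM THZ531. It was measured at 25.4, 26.5 and 26.3 CPM in DMSO, against 16.9, 11.8 and 12.4 CPM with 1 µM THZ531. Lapatinib + THZ531 gave 12.1, 16.15 and 16.1 CPM, and nilotinib + THZ531 11.1, 13.3 and 15.35 CPM, with no overlap with DMSO in any. The log2 FCs were -0.93 (SE 0.133, adjusted p = 3.7e-06), -0.82 (SE 0.133, adjusted p = 1.48e-05) and -0.97 (SE 0.133, adjusted p = 1.87e-06), and no leave-out ended a call. Differences between each combination and 1 µM were 0.11 (95% interval -0.17 to 0.39) and -0.05 (-0.33 to 0.23) for CDK9 and did not pass the test. With 0.1 µM THZ531 alone CDK9 was at 27.15, 25.6 and 27.6 CPM, a log2 FC of 0.04 (95% interval -0.24 to 0.31).

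The cyclins of CDK9 parted. CCNT1, cyclin T1, the main cyclin of P-TEFb, lies at chr12:48688458-48716707 and was at 42.6, 37.5 and 40.8 CPM in DMSO and at 24.6, 14.65 and 25.0 CPM with 1 µM THZ531 (log2 FC -0.91, SE 0.147, adjusted p = 1.63e-05). In the combinations it was at 28.5, 37.95 and 32.1 CPM with lapatinib and at 30.2, 36.6 and 37.8 CPM with nilotinib, with log2 FCs of -0.30 (adjusted p = 0.0759) and -0.21 (adjusted p = 0.209) that did not pass the test. CCNT1 was called lower in both with library size alone (-0.62 and -0.51, adjusted p = 0.000991 and 0.00503) and with mitochondrial mRNA scaling (-0.98 and -0.84, adjusted p = 3.31e-06 and 4.05e-05). With lapatinib it was also called when only the groups compared were fitted (adjusted p = 0.0425) and without replicate 2 of that combination (CCNT1 log2 FC -0.41, adjusted p = 0.0271) or of 1 µM THZ531 (adjusted p = 0.00968). CCNT1 was higher in the combinations than with 1 µM THZ531, by 0.62 (SE 0.147, adjusted p = 0.00319) and 0.70 (SE 0.147, adjusted p = 0.00128).

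CCNT2, cyclin T2, rose in both combinations and fell with 1 µM. It was at 21.3, 19.6 and 19.8 CPM in DMSO, at 26.0, 34.1 and 27.7 CPM with lapatinib + THZ531 and at 26.9, 29.6 and 34.3 CPM with nilotinib + THZ531, so that every combination library was above every DMSO library. The log2 FCs were 0.53 (SE 0.156, adjusted p = 0.00469) and 0.58 (SE 0.156, adjusted p = 0.00247), but with mitochondrial mRNA scaling CCNT2 was at -0.15 and -0.05. With library size alone both rises of CCNT2 lost their call (0.21 and 0.28, adjusted p = 0.256 and 0.126). With 1 µM THZ531 the values of CCNT2 were 18.1, 9.77 and 17.6 CPM (log2 FC -0.42, SE 0.157, adjusted p = 0.0239). That fall rested on replicate 2, without which the log2 FC of CCNT2 was -0.18 (adjusted p = 0.143), and it was also lost without DMSO replicate 1 (adjusted p = 0.0699). Upper-quartile scaling (CCNT2 log2 FC -0.22, adjusted p = 0.179) and fitting only the groups compared (-0.39, adjusted p = 0.104) ended the call too. Mitochondrial mRNA scaling gave -0.97. CCNT2 in the combinations exceeded 1 µM THZ531 by 0.95 (SE 0.158, adjusted p = 0.000126) and 1.00 (SE 0.158, adjusted p = 9.51e-05). For CCNT2 97.4% and 98.2% of tested genes had a lower value in these contrasts.

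HEXIM1, the inhibitor that sequesters P-TEFb, had the largest rise among the members. DMSO libraries held 23.9, 25.5 and 24.1 CPM and the lapatinib + THZ531 libraries 39.2, 73.0 and 73.8 CPM, all above DMSO but with replicate 1 far under the others. The 2.53-fold rise (log2 FC 1.34, SE 0.238, adjusted p = 4.34e-05, edgeR) exceeded that of 94.5% of tested genes and kept its call with each library left out. It also kept its call with mitochondrial mRNA scaling, where HEXIM1 had a log2 FC of 0.64 (adjusted p = 0.00463). With nilotinib + THZ531 HEXIM1 was at 27.4, 43.3 and 46.35 CPM (log2 FC 0.67, SE 0.236, adjusted p = 0.0155). That call was lost without replicate 2 or 3 of that group (HEXIM1 adjusted p = 0.0561 and 0.0755), and the log2 FC was 0.04 with mitochondrial mRNA scaling. With 1 µM THZ531 the HEXIM1 libraries spread from 47.2 over 22.9 to 38.1 CPM and overlapped DMSO. Its log2 FC of 0.56 (SE 0.235, adjusted p = 0.0406) was lost without 1 µM replicate 1 (HEXIM1 log2 FC 0.32, adjusted p = 0.259) and without each of 4 others of the 6 libraries, and it was -0.01 with mitochondrial mRNA scaling.

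With 0.1 µM THZ531 alone HEXIM1 was at 31.4, 33.55 and 34.1 CPM, above every DMSO library, but the log2 FC of 0.43 (SE 0.235) did not pass the test (adjusted p = 0.336). When only these 2 groups were fitted, the standard error for HEXIM1 was smaller and the rise of 0.42 passed (SE 0.058, adjusted p = 0.00373). Nilotinib alone gave 15.5, 19.9 and 20.3 CPM, below DMSO, with a log2 FC of -0.40 that did not pass (adjusted p = 0.629). Lapatinib alone gave 19.1, 24.0 and 21.9 CPM, which overlapped DMSO.

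CCNH, cyclin H of the CDK-activating kinase, lies at chr5:87311471-87412930 and was not called in any strong treatment under TMM. Its libraries lay at 53.1, 46.8 and 53.3 CPM in DMSO, at 53.1, 59.0 and 55.6 CPM with 1 µM THZ531, at 59.5, 54.0 and 49.8 CPM with lapatinib + THZ531 and at 59.5, 53.5 and 49.4 CPM with nilotinib + THZ531. The log2 FCs of CCNH were 0.13 (95% interval -0.05 to 0.31), 0.09 (-0.09 to 0.28) and 0.08 (-0.10 to 0.27), and none passed the test, but with mitochondrial mRNA scaling they were -0.41, -0.59 and -0.54 and all passed. The 0.1 µM THZ531 libraries held 62.1, 63.2 and 53.8 CPM of CCNH, above DMSO, with a log2 FC of 0.23 that did not pass (adjusted p = 0.146). The span of CCNH overlaps those of LOC644285 and RASA1, and reads in any shared exon cannot be told apart.

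MNAT1, which encodes the assembly factor MAT1, rose slightly under TMM. It lies at chr14:60734761-60969965. DMSO gave 28.8, 27.2 and 27.3 CPM, 1 µM THZ531 32.9, 34.7 and 33.6 CPM, lapatinib + THZ531 34.4, 34.1 and 30.9 CPM and nilotinib + THZ531 35.2, 31.7 and 32.6 CPM, without overlap with DMSO. The log2 FCs of MNAT1 were 0.28 (SE 0.066, adjusted p = 0.000802), 0.26 (SE 0.066, adjusted p = 0.00171) and 0.26 (SE 0.066, adjusted p = 0.00177), and all turned with mitochondrial mRNA scaling, to -0.26, -0.43 and -0.37. With library size alone the MNAT1 values were 0.02, -0.07 and -0.05.

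CDK7, the kinase of that module, was barely measured. It lies at chr5:69234795-69277430. Its raw counts in DMSO were 330, 70 and 70, and the other 18 libraries held 17 to 115 counts. The CPM of 2.66 in DMSO replicate 1 stood beside 0.604 and 0.596 in the others, and 1 µM THZ531 gave 0.535, 0.283 and 0.653 CPM. Falls of CDK7 were called with 1 µM THZ531 (log2 FC -1.40, SE 0.495, adjusted p = 0.017), lapatinib + THZ531 (-2.02, SE 0.52, adjusted p = 0.00178) and nilotinib + THZ531 (-1.12, SE 0.487, adjusted p = 0.0465). All 3 calls rested on DMSO replicate 1. Without it the log2 FCs of CDK7 were -0.29 (adjusted p = 0.536), -0.91 (adjusted p = 0.0574) and -0.02 (adjusted p = 0.974). The longest CDK7 transcript aligned over its whole length, at 99.93% identity, to an alternate contig of GRCh38 as well as to chromosome 5. Of the members and listed genes 5 had such a second copy at 99% identity or more, namely CDK7, NELFE, GTF2H2, GTF2H4 and CDKN1C, and all 5 lay under 3 CPM in DMSO, as did 11 of the 67 without one. Whether the authors' alignment index held alternate contigs is not given in the sources used here, and the part of these copies in the low counts was not tested.

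**Figure D2:**
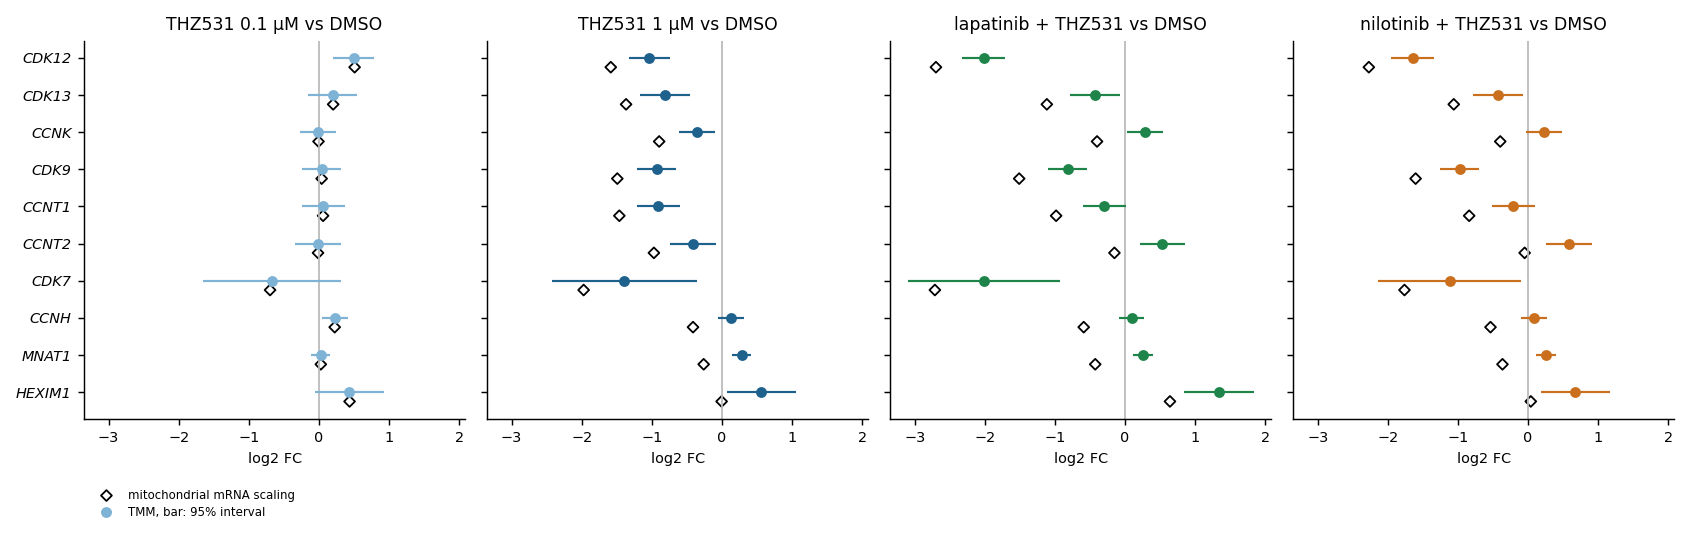
Log2 FC against DMSO (horizontal axes) of the 10 members in 4 treatments, with filled points and bars for the TMM fit and its 95% interval, and open diamonds for scaling to the 13 mitochondrial mRNAs. Under TMM CCNT2, MNAT1 and HEXIM1 lay above 0 in both combinations, while the diamonds of CCNT2 (-0.15 and -0.05) and MNAT1 (-0.43 and -0.37) lay below 0.

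Ratios of 2 members within a library do not depend on the scaling between libraries. The ratio of CCNK to CDK12 reads was higher than in DMSO by 2.30 on the log2 scale with lapatinib + THZ531, by 1.87 with nilotinib + THZ531 and by 0.69 with 1 µM THZ531. The CCNK to CDK12 ratio was lower by 0.51 with 0.1 µM THZ531. CDK13 to CDK12 was higher by 1.57 and 1.2 in the combinations, whereas with 1 µM THZ531 its libraries overlapped DMSO (0.20, exact p = 0.2). Within P-TEFb the ratio of CCNT1 to CDK9 was higher by 0.53 and 0.77 in the combinations and differed by -0.004 with 1 µM THZ531, where the 3 libraries spread widely (SD 0.355). CCNT2 to CCNT1 was higher by 0.83, 0.79 and 0.48 with lapatinib + THZ531, nilotinib + THZ531 and 1 µM THZ531. In the same order HEXIM1 to CDK9 was higher by 2.11, 1.62 and 1.44, and HEXIM1 to CCNT1 by 1.59, 0.85 and 1.45. HEXIM1 to CDK9 was higher by 0.39 with 0.1 µM THZ531, and with nilotinib alone it was lower by 0.39. Ratios to CDK7 rest on its few counts (DMSO SD 1.19). Apart from these and the ratios given as overlapping or spread, the 3 treated libraries lay on 1 side of the 3 DMSO libraries in each. The exact two-sided permutation test of 3 against 3 libraries cannot go below p = 0.1, and after adjustment over 48 tests none went below 0.178.

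**Figure D3:**
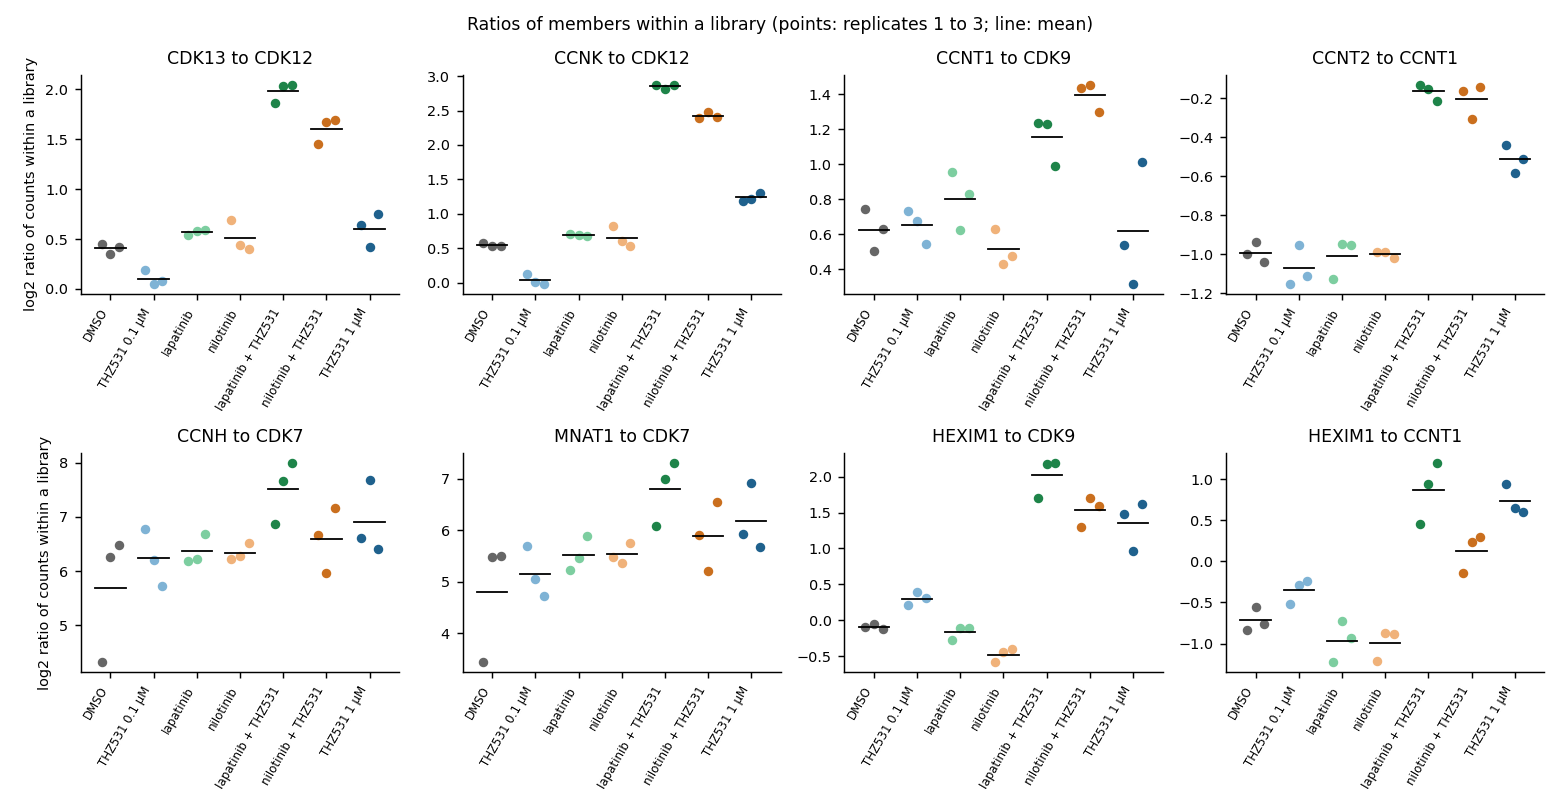
Log2 ratio of the counts of 2 members within each library (vertical axes, not starting at 0), by treatment group, with points for replicates 1 to 3 and lines for group means. The ratio of HEXIM1 to CDK9 separated the 3 strong treatments (means 2.02, 1.53 and 1.35) from DMSO (-0.09), and ratios to CDK7 spread most in DMSO (SD 1.19).

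A higher dose of THZ531 alone lowered 6 members and raised 1 (35.9% and 34.3% of tested genes). From 0.1 to 1 µM THZ531 CDK12 fell by 1.53 on the log2 scale (SE 0.144, adjusted p = 1.19e-08), the largest fall among the members. CDK13, CDK9 and CCNT1 fell (log2 FC -1.01, -0.97 and -0.975), as did CCNK and CCNT2 (-0.34 and -0.40), with no overlap between the doses. Without 1 µM replicate 2 CCNK was at -0.21 (adjusted p = 0.13) and CCNT2 at -0.165 (adjusted p = 0.178), and both calls were also lost with upper-quartile scaling (-0.105 and -0.17) and in 1 and 2 further leave-outs of the libraries compared. MNAT1 was higher by 0.25 (adjusted p = 0.00192), which turned to -0.29 with mitochondrial mRNA scaling. HEXIM1 overlapped between the doses (log2 FC 0.13, 95% interval -0.36 to 0.62).

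Against 1 µM THZ531, lapatinib + THZ531 lowered 1 member and raised 4 (16.1% and 12.8% of tested genes), and nilotinib + THZ531 lowered 1 and raised 3 (13.0% and 11.2%). CDK12 was the member lowered in both, and CCNK, CCNT1 and CCNT2 were raised in both, as given above. HEXIM1 was higher with lapatinib + THZ531 by 0.78 (SE 0.235, adjusted p = 0.0161) with overlapping libraries, a call lost without 1 µM replicate 2 (HEXIM1 log2 FC 0.54, adjusted p = 0.0959) or lapatinib + THZ531 replicate 2 or 3 (adjusted p = 0.08 and 0.085). With nilotinib + THZ531 HEXIM1 differed from 1 µM by 0.11 (95% interval -0.38 to 0.60). When only the 2 groups compared were fitted, CCNT1 lost its call in both contrasts (adjusted p = 0.0657 and 0.0532). Between the combinations 0 members were called in edgeR and 0 in DESeq2, beside 0.736% and 0.730% of tested genes lower and higher. The differences nearest to a call were those of CDK12 (-0.37, 95% interval -0.67 to -0.07, adjusted p = 0.255) and HEXIM1 (0.67, 95% interval 0.18 to 1.16, adjusted p = 0.191), both unadjusted p under 0.05.

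Whether the change with 0.1 µM THZ531 differed with and without the kinase inhibitor was tested as an interaction. For lapatinib it was called lower in 2 members and higher in 2 (32.0% and 28.2% of tested genes), and for nilotinib lower in 2 and higher in 1 (31.2% and 25.6%). CDK12 gave -2.27 (SE 0.202, adjusted p = 9.42e-09) with lapatinib and -1.93 (SE 0.201, adjusted p = 9.63e-08) with nilotinib, where 0.1 µM THZ531 alone had gone up. CDK9 gave -0.75 (SE 0.186, adjusted p = 0.00185) and -0.99 (SE 0.186, adjusted p = 0.000141). CDK13 gave -0.54 (adjusted p = 0.056) and -0.51 (adjusted p = 0.0775), which did not pass. Both CDK13 values passed with library size alone (-0.84 and -0.75) and with mitochondrial mRNA scaling (-1.10 and -0.97). HEXIM1 gave 1.09 (SE 0.332, adjusted p = 0.00822) with lapatinib and 0.64 (adjusted p = 0.107) with nilotinib. The HEXIM1 interaction with lapatinib no longer passed with mitochondrial mRNA scaling (0.53, adjusted p = 0.124) or with library size alone (0.79, adjusted p = 0.0522). CCNT2 gave 0.74 (SE 0.22, adjusted p = 0.00766) with nilotinib and 0.50 (adjusted p = 0.0559) with lapatinib. The CCNT2 call with nilotinib was lost with library size alone (0.49, adjusted p = 0.0746) and with mitochondrial mRNA scaling (0.28, adjusted p = 0.384). CCNK gave 0.41 (SE 0.173, adjusted p = 0.0489) with lapatinib, a call lost in 13 of 21 leave-outs. The CCNK call was also lost with library size alone (0.11, adjusted p = 0.621), and the value turned to -0.15 with mitochondrial mRNA scaling.

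Members of like gene span moved in opposite directions. When 13747 tested protein-coding genes were split by genomic span into 5 groups of 2749 or 2750, the median log2 FC with lapatinib + THZ531 was 0.34 in the group of shortest genes and -0.03, -0.16, -0.26 and -0.16 in the others by increasing span. HEXIM1 (3.62 kb) and CDK9 (4.76 kb) both lay in the shortest group, at 1.34 and -0.82. CDK12 (106.07 kb), CDK13 (149.32 kb), CCNH (101.46 kb) and MNAT1 (235.21 kb) lay in the longest group, at -2.02, -0.43, 0.09 and 0.26. CCNK, CCNT1, CCNT2 and CDK7 lay in the middle group. The 282 genes with a single exon, such as HEXIM1, had a median of -0.10 with lapatinib + THZ531 and of -0.41 with 1 µM THZ531.

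**Figure D4:**
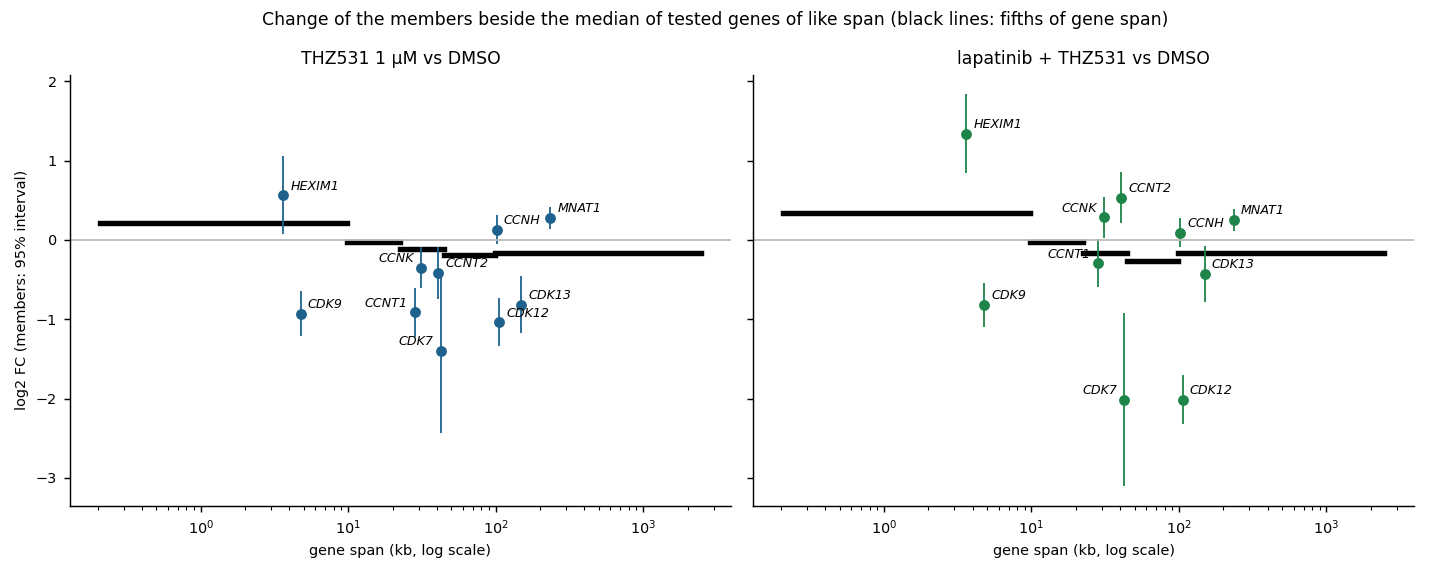
Log2 FC against DMSO (vertical axis, TMM) of the 10 members by genomic span in kb (horizontal log axis), with bars for the 95% interval and black lines for the median of all tested protein-coding genes in each of 5 span groups. The medians ran from 0.34 to -0.26 with lapatinib + THZ531, while members of like span, such as HEXIM1 (1.34) and CDK9 (-0.82), lay on either side of them.

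Other genes of the P-TEFb circuit also moved in both directions. For this and the following lists, the calls over all tested genes were 37.8% lower and 34.3% higher with lapatinib + THZ531, 37.3% and 33.7% with nilotinib + THZ531, and 36.8% and 33.1% with 1 µM THZ531. These shares are under TMM. With mitochondrial mRNA scaling the median log2 FC of all tested genes was -0.69, -0.63 and -0.55 in the same order. The shares called under that scaling are not given, so list counts under it have no share beside them. Of 9 listed regulators of 7SK and P-TEFb, 3 fell and 3 rose with lapatinib + THZ531, 2 fell and 3 rose with nilotinib + THZ531, and 3 fell and 2 rose with 1 µM THZ531. MEPCE, which caps 7SK RNA, fell from 129.6 ± 4.92 to 34.0 ± 5.0, 28.4 ± 4.19 and 36.5 ± 8.16 CPM (SD, n = 3) in these treatments, a log2 FC of -1.93, -2.19 and -1.83. With mitochondrial mRNA scaling the list counted 5, 4 and 6 lower and 1, 2 and 1 higher. HEXIM2, the paralog of HEXIM1, fell from a low level of 2.38 CPM (log2 FC -0.55, -0.63 and -0.53). LARP7, which stabilises 7SK, fell with lapatinib + THZ531 only as a call (-0.32, against -0.12 and 0.07, a difference between treatments that was not tested). Among super elongation complex genes, AFF4 fell with 1 µM THZ531 (-0.53), ELL2 was higher in the combinations (0.33 and 0.37, but -0.35 and -0.26 with mitochondrial mRNA scaling) and AFF1 was not called (0.43, 0.45 and -0.33). RN7SK, the 7SK RNA itself, is not polyadenylated and was read at 0.386 CPM in DMSO, so its rises of 0.99, 2.11 and 1.98 rest on few counts. NELFE, of the pausing factor NELF, was at 0.624 CPM and was not called.

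In the Mediator kinase module, which holds CDK8 or CDK19 with cyclin C, 3, 3 and 4 of 7 genes fell and 3, 2 and 2 rose in the same order of treatments, beside shares of 36.8% to 37.8% lower and 33.1% to 34.3% higher over all tested genes. MED13, the link of the module to Mediator, fell (log2 FC -1.40, -1.44 and -1.54), while its paralog MED13L was at 0.48 and 0.56 in the combinations and -0.34 with 1 µM, the last not called, and at -0.21, -0.07 and -0.89 with mitochondrial mRNA scaling. CDK8 fell with 1 µM THZ531 (-0.76), and CDK19 fell in the combinations (-0.86 and -0.83) and with 1 µM (-0.20). MED12, which activates the kinase, fell in all 3 (-0.65, -0.65 and -0.49). CCNC was higher by 0.26, 0.34 and 0.38, which with mitochondrial mRNA scaling became -0.42, -0.28 and -0.17. MED12L lay at 0.188 CPM in DMSO and rose by 1.04 with lapatinib + THZ531 and by 1.17 with 1 µM. With mitochondrial mRNA scaling 5, 4 and 5 of the 7 fell and none rose.

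Of the 9 other transcription-related CDKs and cyclins, which include CDK8, CDK19 and CCNC, 4, 4 and 5 fell and 1 rose in each strong treatment, and with mitochondrial mRNA scaling 9, 8 and 8 fell and none rose. CCNL1, a cyclin of CDK11, fell (log2 FC -1.34, -1.57 and -1.18), as did CCNQ, the cyclin of CDK10 (-0.78, -0.61 and -0.76).

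Among the other TFIIH subunits, the core to which the CDK7 module binds, 6 of 7 were tested and 4, 4 and 3 fell while 1, 2 and 2 rose (5 of 6 fell and none rose with mitochondrial mRNA scaling in each). ERCC3, the XPB translocase that opens the promoter, fell from 31.0 ± 1.06 to 6.74 ± 0.611 CPM with lapatinib + THZ531, 7.46 ± 0.849 CPM with nilotinib + THZ531 and 15.5 ± 3.3 CPM with 1 µM THZ531 (log2 FC -2.20, -2.06 and -1.01). GTF2H1, a scaffold subunit of the core, fell as well (-1.13, -1.003 and -0.88). GTF2H2 fell from 2.62 CPM (-3.64, -2.83 and -2.715), and it has an alternate-contig copy.

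Of 12 tested CDKs and cyclins of the cell cycle, 8, 8 and 7 fell and none rose in the strong treatments, beside the same shares of all tested genes, and with mitochondrial mRNA scaling 12, 12 and 11 fell. CCNF, a cyclin that selects substrates of a ubiquitin ligase, fell from 80.7 ± 6.22 to 7.92 ± 1.21, 7.43 ± 1.3 and 11.4 ± 3.15 CPM (log2 FC -3.35, -3.44 and -2.82), as did CCNE2, a cyclin of S phase entry (-2.42, -2.68 and -2.21), and CCNA2, cyclin A2 (-1.60, -1.66 and -1.84). The genes of CDK inhibitor proteins rose in 6, 5 and 3 of 7 and fell in 1, and with mitochondrial mRNA scaling rose in 3, 2 and 2 and fell in 1, 2 and 3. CDKN1A, which encodes p21, rose by 1.28, 0.67 and 1.03, CDKN2A by 1.85, 1.47 and 1.44 from 0.599 CPM, and CDKN2D by 1.35, 1.17 and 0.66. With mitochondrial mRNA scaling CDKN2A kept its call in all 3, CDKN1A with lapatinib + THZ531 (0.59) and 1 µM THZ531 (0.49), and CDKN2D in the combinations (0.67 and 0.56). With 0.1 µM THZ531, lapatinib or nilotinib alone there were 4 calls among all these lists, named here after their values were seen. Of all tested genes 4.31% were called lower and 1.78% higher with 0.1 µM THZ531. The shares were 0.0561% and 0.256% with lapatinib and 0.0998% and 0.243% with nilotinib. With 0.1 µM THZ531 GTF2H1 fell by 0.37 (adjusted p = 0.00523), CCNB2 rose by 0.27 (adjusted p = 0.0421) and CDKN1A rose by 0.59 (adjusted p = 0.0007), and with nilotinib CDKN2C fell by 0.37 (adjusted p = 0.0196).

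Across the 21 libraries, the genes whose log2 CPM followed a member most closely were sought among 10912 genes. These correlations share libraries and treatment groups and are given as a description. CDK12 was followed by PIK3R3, DHX8 and EBF1 (Pearson r 0.986, 0.985 and 0.978), CDK13 by BCL11B, EFNA5 and DOT1L (0.989, 0.981 and 0.979) and CDK9 by ATXN1L, ZNF696 and ADAMTS4 (0.984, 0.984 and 0.983). HEXIM1 was followed by ELOA, MED18 and MAGI3 (0.949, 0.933 and 0.930). For CDK7 the closest reached only 0.689 (ZNF395), 0.670 (XPO4) and 0.670 (ECHDC3). Among the members, CCNK and CCNT2 ran together (0.897), as did CDK12 and CDK9 (0.896), while CDK9 and MNAT1 ran opposite (-0.929).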

How the data were processed

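PolyA-selected RNA was sequenced without strand information. Reads were aligned to GRCh38 with HISAT2 2.1.0 and counted with featureCounts by the authors, who deposited raw counts for 28395 Entrez genes. The annotation, and whether read ends or pairs were counted, are not given in the sources used here. Of the identifiers 27745 matched RefSeq symbols (99.98% of counts). Totals were 97612207 to 112229052 counts per library, and all 21 columns were used.

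Genes were filtered with filterByExpr, scaled by TMM and fitted together over 21 libraries with edgeR 4.0.16 (R 4.3.3, limma 3.58.1), using quasi-likelihood tests with Benjamini-Hochberg adjustment over 16036 genes and a threshold of 0.05 for 12 comparisons. Log2 CPM values used a prior count of 2, log2 FCs were those of the quasi-likelihood fit, and intervals are 95%. Log2 ratios within a library used a pseudocount of 0.5 and exact permutation tests over 48 comparisons. Second copies of transcripts were sought with minimap2 2.31-r1302. The fits were tested on simulated data. Alternatives were RLE, library size alone, upper-quartile and mitochondrial mRNA scaling, other filters, DESeq2 1.42.0, a replicate block, only the groups compared, halved counts and leaving out each library.

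The members and lists were chosen with earlier results of these data known. All members are named for lapatinib + THZ531, nilotinib + THZ531 and 1 µM THZ531 against DMSO. In the other comparisons every called member is named, and members that were not called are named only in part. Of the lists, every 7SK and Mediator kinase gene and the 3 genes with the largest log2 FC in size at 1 µM THZ531 in each other list are named. The result for 1 listed gene is not reported here. For likeness, the 3 genes with the highest r were taken for CDK12, CDK13, CDK9, CDK7 and HEXIM1, among tested genes whose log2 CPM averaged 1 or more.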

Additional observations from a re-analysis of the deposited data

Results flagged for a closer look

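For 7 member and inhibitor pairs, the effect of 0.1 µM THZ531 differed between cells with and without the kinase inhibitor by the interaction test itself (edgeR quasi-likelihood, adjusted over all tested genes). With lapatinib the interaction was -2.27 for CDK12 (adjusted p = 9.42e-09), -0.745 for CDK9 (adjusted p = 0.00185), 1.09 for HEXIM1 (adjusted p = 0.00822) and 0.41 for CCNK (adjusted p = 0.0489). With nilotinib it was -1.925 for CDK12 (adjusted p = 9.63e-08), -0.99 for CDK9 (adjusted p = 0.000141) and 0.74 for CCNT2 (adjusted p = 0.00766). That of CCNT2 was lost with library size alone (0.49, adjusted p = 0.0746) and with mitochondrial mRNA scaling (0.28, adjusted p = 0.384). Those of HEXIM1 and CCNK with lapatinib were lost as well, both with library size alone (0.79, adjusted p = 0.0522, and 0.11, adjusted p = 0.621) and with mitochondrial mRNA scaling (0.53, adjusted p = 0.124, and -0.15). The values for CDK12 and CDK9 kept their direction and call under every scaling. Of tested genes 32.0% had a lower and 28.2% a higher call for lapatinib, and 31.2% and 25.6% for nilotinib.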

How the results depend on the processing

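Depth set a limit for CDK7 only, whose 17 to 330 counts gave the widest intervals. Halving the counts and requiring at least 10 counts in every library changed no count of members by over 1.5 times. Among results called in the main fit or in the alternative, none turned its direction other than by scaling. Results called in neither were not followed for direction.

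Mitochondrial mRNA scaling turned CCNH to -0.41 with 1 µM THZ531, -0.59 with lapatinib + THZ531 and -0.54 with nilotinib + THZ531. It turned CCNK to -0.40 in both combinations and to -0.15 in the interaction with lapatinib, CCNT2 to -0.15 and -0.049 in the combinations, and HEXIM1 to -0.005 with 1 µM THZ531. MNAT1 became -0.26 with 1 µM THZ531, -0.29 between the doses, and -0.425 and -0.365 in the combinations. With library size alone CCNH was at -0.235 and -0.22 in the combinations, MNAT1 at -0.072 and -0.047, and CCNK at -0.042 with lapatinib + THZ531. Both gave all genes a median log2 FC of -0.69 to -0.27 in these treatments, and upper-quartile scaling one of 0.13 to 0.19.

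Counts of members called moved as follows, and the shares of all tested genes called under these settings are not given. Under mitochondrial mRNA scaling 5 members lay beyond a log2 FC of -1 with 1 µM THZ531 and 4 in each combination, 0 beyond 1 with lapatinib + THZ531, and 8 were lower in each combination. The interactions then had 5 lower members each and 0 higher. Members higher numbered 0 with 0.1 µM and 1 µM THZ531, 0 between the doses, 1 with lapatinib + THZ531 (HEXIM1) and 0 with nilotinib + THZ531. Library size alone gave the same counts of higher members, 5 beyond -1 with 1 µM THZ531, and 5 and 4 lower in the interactions with lapatinib and nilotinib. Upper-quartile scaling gave 1 beyond -1 with 1 µM THZ531 (CDK7) and 1 with nilotinib + THZ531 (CDK12), 5 higher and 2 lower with nilotinib + THZ531, and 4 higher in each interaction. Fitting only the groups compared gave 1 beyond -1 with 1 µM THZ531 and with nilotinib + THZ531 (CDK12), 2 higher with 0.1 µM THZ531 (CDK12 and HEXIM1), 2 higher with lapatinib + THZ531 against 1 µM THZ531, 3 higher in the interaction with nilotinib and 4 lower in that with lapatinib. Without a filter 1 was higher in the interaction with lapatinib. DESeq2's test, its size factors and the replicate block gave 1 beyond -1 with nilotinib + THZ531 (CDK12).

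With each library left out in turn, members higher with 0.1 µM THZ531 numbered 0 to 1. With lapatinib + THZ531 3 to 5 were lower, 3 to 4 higher and 1 to 2 beyond -1 (1 without DMSO replicate 1), and with nilotinib + THZ531 2 to 4 lower (2 without its replicate 1), 2 to 4 higher and 1 to 2 beyond -1. With 1 µM THZ531 4 to 7 were lower (4 without its replicate 2), 1 to 2 higher and 0 to 4 beyond -1 (4 without its replicate 1, 0 without its replicate 2, 1 without DMSO replicate 1 or 2). Between the doses 4 to 6 were lower. Against 1 µM THZ531 3 to 5 were higher with lapatinib + THZ531 and 3 to 4 with nilotinib + THZ531, and between the combinations 0 to 1 was higher (HEXIM1, 0.91, adjusted p = 0.0331 in edgeR, without lapatinib + THZ531 replicate 1). The interactions ranged over 2 to 4 lower and 1 to 3 higher with lapatinib and 2 to 3 lower and 1 to 3 higher with nilotinib. The other counts of calls did not move.

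Deviations from the group means of same-numbered libraries had a mean r of 0.115 over 63 pairs, of which 35 were over 0.1, and those of different-numbered libraries one of -0.0541 over 126 pairs, of which 48 were over 0.1. The main fit did not pair the samples by number, since not every same-numbered pair was over 0.1. That rule does not show that same-numbered libraries were independent. Same-numbered libraries were closer on average, and a replicate block was run as an alternative. Deviations cancel out within a group, so the mean r of different-numbered libraries largely follows from that of same-numbered ones. The replicate block changed 2 calls on members, CDK13 in the interaction with lapatinib (-0.55, adjusted p = 0.0438, gained) and CDK7 with nilotinib + THZ531 (-0.97, adjusted p = 0.0715, lost).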
